A study of Canis lupus familiaris with 33 samples.

Results

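The 11 formalin-fixed, paraffin-embedded (FFPE) canine oligodendrogliomas of the series fell into 6 tumours whose dog number appeared on an FFPE library alone (archive-only) and 5 tumours of dogs that also gave a fresh-frozen tumour library (frozen-paired). They were chosen by dog number and tissue label, and made up 11 of 33 RNA sequencing libraries. The archive-only tumours came from dogs 43917, 44331, 50416, 51234, 60177 and 60792. They were 3 Boxers and 3 French Bulldogs, with ages of 10.3, 7.9, 7, 8.3, 5.3 and 12 years in that order of dogs. The frozen-paired tumours came from dogs 60127, 60461, 60636, 60679 and 60749, which were 1 dog labelled Pomerian, 3 French Bulldogs and 1 Boxer. The FFPE labels gave ages of 10, 4.7 and 8.2 years for dogs 60127, 60636 and 60679. Each set held 1 tumour of grade II (dog 51234 archive-only, dog 60679 frozen-paired), and the others were of grade III.

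The labels gave no age of the blocks and no collection date, so the split describes which dogs also had frozen tissue, and storage time was not tested. All tumours came from necropsy, 1 to 18 hours after death. FFPE control brains, split the same way into 7 archive-only and 3 frozen-paired libraries, and 6 fresh-frozen tumours were used beside the tumours. The archive-only control brains came from 4 Boxers and 3 French Bulldogs, with ages of 4 and 2 years given for dogs 47198 and 50315 alone. The frozen-paired control brains came from 1 Bolonka Swetna of 2.8 years and 2 French Bulldogs of 6.9 and 8 years. The fresh-frozen tumours were those of the 5 frozen-paired dogs, where the label of dog 60461 gives 8.8 years, and of a Border Terrier of 8 years with a grade III tumour. No library was treated or carried an engineered allele.

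Oligodendroglioma is a tumour of glial cells that is common in short-nosed dog breeds. Formalin cross-links RNA to protein and breaks it, so that FFPE libraries are read from short, modified pieces. A total RNA library also takes up ribosomal, mitochondrial and small non-coding RNA, which share the read total with the spliced transcripts of protein-coding genes. The deposited table gave Ensembl identifiers without gene names, so genes are described by position and structure, and the tumour label could not be checked against cell type markers. In bulk tissue, fewer cells of a type and less RNA per cell cannot be told apart.

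Archive-only tumours held 1752162, 5704466, 3034305, 3835499, 4166898 and 3394612 counts (dogs 43917, 44331, 50416, 51234, 60177 and 60792). Frozen-paired tumours held 12501029, 6714065, 5348384, 4855197 and 9714479 counts (dogs 60127, 60461, 60636, 60679 and 60749). Of the 6 archive-only libraries, 5 were shallower than every frozen-paired library, and dog 44331 was deeper than dogs 60636 and 60679. On the log10 scale the totals averaged 6.54 ± 0.17 in archive-only and 6.87 ± 0.17 in frozen-paired tumours (SD, n = 6 and 5; difference −0.33; exact two-sided permutation over 462 splits, adjusted p = 0.0379 over 14 library measures). That call was kept without dog 44331 and lost without any other single library (adjusted p = 0.0571 to 0.0833). Depth therefore moved with the split, and its part in the results below was not tested beyond the values given beside them. At equal depth, 17375 ± 636 genes were expected to be detected in archive-only and 17185 ± 430 in frozen-paired tumours (exact permutation, adjusted p = 0.727). The FFPE library of dog 60461 was less like its own frozen library (Spearman correlation 0.871, rank 4 of 6 frozen tumours) than like that of dog 60679 (0.918), whereas the other 4 frozen-paired tumours were most like their own (0.892 to 0.975). The main differences are therefore also given without dog 60461. For dog 60636 the lead was narrow, since its correlations with the 6 frozen tumours ran from 0.8665 to 0.8915.

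The sets differed in the share of counts on unplaced scaffolds, the stretches of the CanFam3.1 assembly that are assigned to no chromosome. They took 17.6, 7.17, 4.69, 2.59, 12.4 and 12.6% of the counts in the archive-only tumours of dogs 43917, 44331, 50416, 51234, 60177 and 60792. They took 0.726, 1.30, 1.40, 1.42 and 1.47% in the frozen-paired tumours of dogs 60127, 60461, 60636, 60679 and 60749. All 6 archive-only values lay above all 5 frozen-paired values. The means were 9.51 ± 5.66% and 1.26 ± 0.31%, a ratio of 7.52 (archive-only over frozen-paired; exact permutation p = 0.00649, adjusted p = 0.0303). The 6 fresh-frozen tumours held 0.199 to 0.641%. Dog 44331, at 7.17%, stood above the shallower frozen-paired libraries of dogs 60636 and 60679, at 1.40 and 1.42%. That is a single library, and the part of depth in the scaffold share was not tested. With log10 total counts as a term, the difference on the log2 scale was 1.99, and without it 2.69. The test kept its call without dog 44331 or dog 51234 and lost it without any other single library (adjusted p = 0.0556 to 0.0667), and without dog 60461 the difference was 8.25 points (adjusted p = 0.0667).

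Nearly all of this came from 2 scaffolds. On AAEX03025866.1, a single-exon feature of 1869 bp at 1344 to 3212, on the forward strand, took 15.2, 6.09, 4.02, 1.73, 9.47 and 7.79% of the counts in the archive-only tumours (dogs in the order above). The same feature took 0.593, 0.770, 1.03, 1.25 and 0.0655% in the frozen-paired tumours, and 0.0051 to 0.0438% in fresh-frozen tumours. It averaged 7.38% in archive-only and 0.741% in frozen-paired tumours. Across all genes its log2 fold change of 3.53 ± 0.77 (SE) missed the threshold (edgeR adjusted p = 0.102). A second single-exon feature of the same length, on JH373485.1 at 22624 to 24492 on the reverse strand, held 0.00589 to 0.726% of the counts in archive-only and 0.000422 to 0.00876% in frozen-paired tumours. It passed, at 6.42 ± 1.18 on the log2 scale (edgeR adjusted p = 0.0491), although its groups overlapped. It shares part of its span with a 3-exon gene on the same strand. It also shares part with a 4-exon gene on the opposite strand, which stranded counting keeps apart. The AAEX03025866.1 feature lies within the span of a 3-exon gene on its own strand. Reads in exons shared with a gene on the same strand could be dropped. Another JH373485.1 feature, 1 exon of 1323 bp starting at 28536 and partly opposite another single-exon feature, had 11.7 to 519.1 CPM, the count scaled to the size of the library, in archive-only against 2.16 to 4.02 CPM in frozen-paired tumours, with no overlap and a log2 difference of 5.89 ± 1.00 (SE, edgeR adjusted p = 0.0480). JH373485.1 as a whole took 0.495 to 4.38% of counts in archive-only and 0.0442 to 1.10% in frozen-paired tumours, and those ranges overlapped. These scaffolds and features were picked after their values were seen, and neither the deposited table nor the annotation at hand names what they encode. The other unplaced scaffolds together held 0.140 to 0.267% in archive-only and 0.0869 to 0.238% in frozen-paired tumours.

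**Figure D1:**
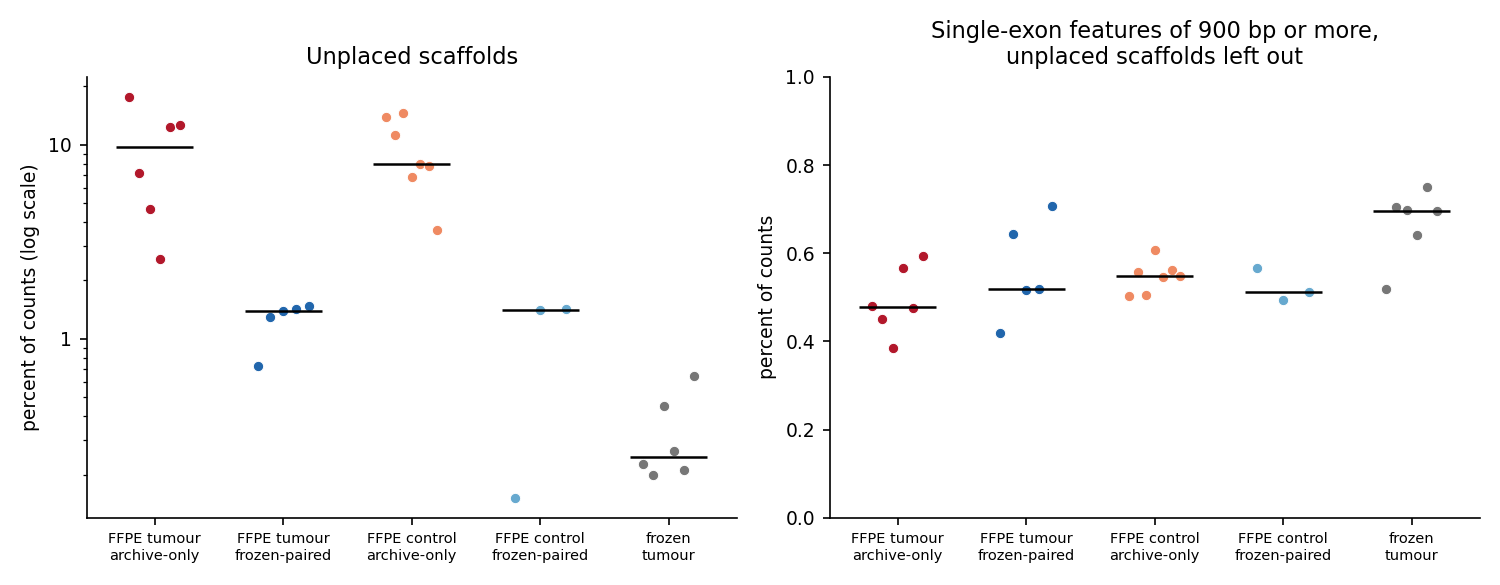
Percent of each library's counts on unplaced scaffolds (left, log scale) and in single-exon features of at least 900 bp outside those scaffolds (right). Points are libraries and lines are group medians. On the left all 6 archive-only tumours stand above all 5 frozen-paired ones, and on the right the ranges overlap.

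Single-exon genes over 300 bp, which include the scaffold features above, held 8.67 ± 4.91% of counts in archive-only and 1.86 ± 0.39% in frozen-paired tumours (6 of 6 above all frozen-paired values, exact permutation adjusted p = 0.0303). That call too was lost without any single library other than dog 44331 or 51234, and with log10 total counts as a term the log2 difference was 1.33, against 2.04 without it. For the features of at least 900 bp, the shares were 8.10 ± 4.95% in archive-only and 1.31 ± 0.41% in frozen-paired tumours (adjusted p = 0.0375 over 13 gene classes), and the call was lost without any of the 5 frozen-paired dogs (adjusted p = 0.0619 each). Relative to counts on chromosomes 1 to 38 and X alone, that class held 0.742 ± 0.090% in archive-only and 0.722 ± 0.058% in frozen-paired tumours (exact permutation p = 0.667), so the difference did not appear among genes placed on chromosomes. Multi-exon genes held 64.4 ± 6.2% of all counts in archive-only and 74.7 ± 9.7% in frozen-paired tumours (adjusted p = 0.117).

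In control brains the scaffold shares were ordered the same way. The share on unplaced scaffolds was 3.62 to 14.6% in 7 archive-only and 0.152 to 1.42% in 3 frozen-paired control brains, with all 7 above all 3. The means of 9.41 ± 3.98% and 0.99 ± 0.73% missed the threshold after adjustment over 9 measures (exact permutation over 120 splits, p = 0.0167, adjusted p = 0.075). The difference was 8.24 percentage points in tumours and 8.42 in control brains. The difference of these differences was −0.17 points (exact permutation over 55440 patterns, adjusted p = 0.973), and none of 9 such tests passed (smallest adjusted p = 0.290).

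Among single genes, 25 of 13726 tested passed between archive-only and frozen-paired tumours (0.182%; edgeR quasi-likelihood F test, Benjamini-Hochberg adjusted p under 0.05). Of these, 24 were higher (0.175%) and 1 was lower (0.00729%). Their adjusted p-values lay between 0.0328 and 0.0491. At an unadjusted p under 0.05, 953 genes were higher (6.94%) and 451 lower (3.29%). The number that passed rested on the tool and on single libraries. It was 276 with DESeq2, of which 250 were higher, and 179 with limma voom and quality weights, of which 155 were higher. It was 0 with log10 total counts as a covariate and 0 without any of dogs 43917, 50416, 60792, 60127, 60461, 60636 or 60679. It was 2 without dog 60177, 3 without dog 60749, 24 without dog 51234 and 35 without dog 44331.

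Short single-exon features, defined as genes of 1 exon and up to 300 bp that are not mitochondrial, made up 19 of the 24 genes that rose. They were 463 of the 13726 genes tested, and 0.175% of all genes tested were called higher. This class is where annotations place most small non-coding RNA. Of 3344 in the table, 463 passed the filter on low counts. Their median log2 fold change was 1.25, against 0.04 over all genes tested. It was 0.72 with log10 total counts as a covariate, 0.71 in French Bulldogs only and 1.28 without dog 60461. At an unadjusted p under 0.05, 245 of the 463 were higher and 3 lower, or 52.9% and 0.648%, against 6.94% and 3.29% of all genes tested. A feature near 0 in frozen-paired tumours could pass the filter through the archive-only ones, so the shares higher in this class may be tilted upward. With no filter on low counts the median was 0.99 over 2541 features, and among 183 features whose mean count reached 50 it was 0.94. Within the class the median was 0.95 for 82 features of up to 95 bp, 1.76 for a middle group that starts at 96 bp, and 1.00 for 265 longer ones. In the middle group 81 features, or 69.8%, were higher and 0 lower at an unadjusted p under 0.05.

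The share of counts in short features was 2.59, 1.67, 2.79, 3.21, 2.27 and 3.96% in the archive-only tumours of dogs 43917, 44331, 50416, 51234, 60177 and 60792. It was 1.45, 1.07, 2.43, 1.89 and 2.25% in the frozen-paired tumours of dogs 60127, 60461, 60636, 60679 and 60749. The groups overlapped, with 4 of 6 archive-only values above all frozen-paired ones, and the means of 2.75 ± 0.79% and 1.82 ± 0.56% did not pass (exact permutation p = 0.0519, adjusted p = 0.104). The fresh-frozen tumours held 0.631 to 1.58%.

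Exonic lengths recurred among the short features that rose. The lengths 119, 128 and 164 bp each had 3 called members, and these lengths were noted after the values were seen. Because called members chose the lengths, and a feature near 0 in frozen-paired tumours passed the filter through the archive-only ones, their log2 fold changes are a description. With no filter on low counts the median was 3.75 over 15 features of 119 bp, 2.16 over 7 of 128 bp and 1.64 over 18 of 164 bp. Among those that passed the filter it was 6.43 over 4, 2.84 over 4 and 1.86 over 9. The 19 annotated 119-bp features together took 0.0667 and 0.0239% of counts in the archive-only tumours of dogs 43917 and 60792, and 0.00117 to 0.00482% in the other 4. They took 0.000113 to 0.00121% in the frozen-paired tumours, which overlapped the archive-only range at its low end. The 18 features of 164 bp took 0.0208 to 0.0476% in archive-only and 0.004 to 0.0173% in frozen-paired tumours, with no overlap. Such groups may be copies of nearly the same sequence, between which the counting could split or drop reads, so single members are uncertain.

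**Figure D2:**
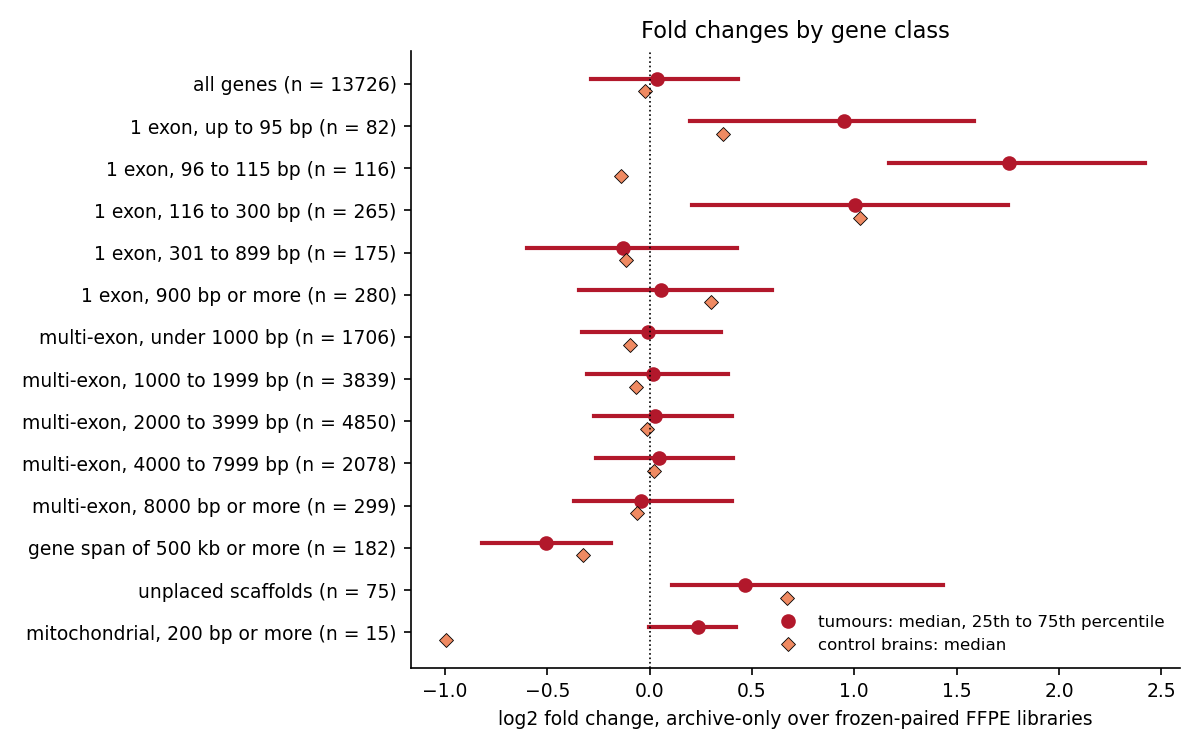
Median log2 fold change of tested genes by class, archive-only over frozen-paired FFPE libraries, with n the genes tested in tumours. Circles and bars are tumours (median, 25th to 75th percentile) and diamonds are medians in control brains. Short single-exon classes lie at 0.95 to 1.76 in tumours, and genes spanning at least 500 kb at −0.51.

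ENSCAFG00000016810 and ENSCAFG00000021991 had the largest rise among the 10 higher genes that met the rule for named genes. That rule also asks for no overlap with another gene. Other called genes rose more, by up to 8.47 on the log2 scale, but did not meet its conditions. No lower gene met the rule. ENSCAFG00000021991 is a single-exon feature of 165 bp on chromosome 1 (54269307 to 54269471, forward strand, CanFam3.1). It had 74.8, 28.6, 41.9, 28.7, 20.4 and 76.6 CPM in the archive-only tumours of dogs 43917, 44331, 50416, 51234, 60177 and 60792. It had 4.32, 4.32, 6.36, 6.80 and 2.06 CPM in the frozen-paired tumours of dogs 60127, 60461, 60636, 60679 and 60749. Every archive-only tumour lay above every frozen-paired one, and fresh-frozen tumours had at most 0.419 CPM. The log2 fold change was 3.46 ± 0.48 (SE, edgeR adjusted p = 0.0328), and across the alternatives the adjusted p ran from 1.10e-10 to 1.00, with 0.151 without dog 60461. In control brains the log2 fold change was 2.67 ± 1.40 (edgeR adjusted p = 0.335), and 1 of 3 frozen-paired controls, at 50.1 CPM, lay inside the archive-only range of 27.8 to 255.7 CPM.

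ENSCAFG00000016810 is a single-exon feature of 1131 bp on chromosome 9 (24178438 to 24179568, reverse strand). It had 19.98, 4.21, 5.60, 3.39, 10.6 and 103.7 CPM in the archive-only tumours and 0.32, 0.894, 0.374, 0.206 and 0.618 CPM in the frozen-paired tumours, in the same order of dogs. The groups did not overlap, and dog 60792 stood far above the other archive-only tumours, while fresh-frozen tumours had at most 0.307 CPM. Counts were 13 to 352 per library in archive-only and 1 to 6 in frozen-paired tumours. The feature passed the filter on low counts through the archive-only tumours alone, so its fold change and lack of overlap are a description. The log2 fold change was 5.92 ± 1.06 (edgeR adjusted p = 0.0480), and across the alternatives the adjusted p ran from 4.13e-09 to 1.00, with 0.157 without dog 60461. In control brains it was 17.9 to 324.8 CPM in archive-only and at most 1.25 CPM in frozen-paired libraries (edgeR adjusted p = 0.0959).

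Of the lower genes, the 1 that passed spanned 31028026 to 31186827 on chromosome 3 with 26 exons and 6261 exonic bp. It lay outside the rule and is described because it was the only one. It had 1.14 to 2.10 CPM in archive-only and 3.55 to 13.6 CPM in frozen-paired tumours, from 2 to 12 counts against 19 to 146 counts per library, with no overlap. Its log2 fold change was −2.46 ± 0.45 (edgeR adjusted p = 0.0491). The gene passed the filter on low counts through the frozen-paired tumours, so its fold change and lack of overlap are a description. Among lower genes that met the other conditions of the rule, ENSCAFG00000017797 and ENSCAFG00000004500 had the smallest p but missed the threshold. ENSCAFG00000017797 (chromosome X, 77055328 to 77055807, forward strand, 1 exon of 480 bp) had 10.3 to 20.3 CPM in archive-only and 28.8 to 52.5 CPM in frozen-paired tumours (log2 fold change −1.21 ± 0.28, edgeR adjusted p = 0.128). It held 12.0 to 31.7 CPM in archive-only and 51.0 to 132.6 CPM in frozen-paired control brains. ENSCAFG00000004500 (chromosome 21, 13688338 to 13755414, forward strand, 20 exons, 7054 exonic bp) had 21.1 to 35.98 CPM in archive-only and 43.4 to 90.6 CPM in frozen-paired tumours (log2 fold change −1.07 ± 0.26, edgeR adjusted p = 0.160). Neither gene's tumour ranges overlapped, and across the alternatives the adjusted p ran from 0.00786 to 1.00 for ENSCAFG00000017797 and from 0.00866 to 1.00 for ENSCAFG00000004500.

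**Figure D3:**
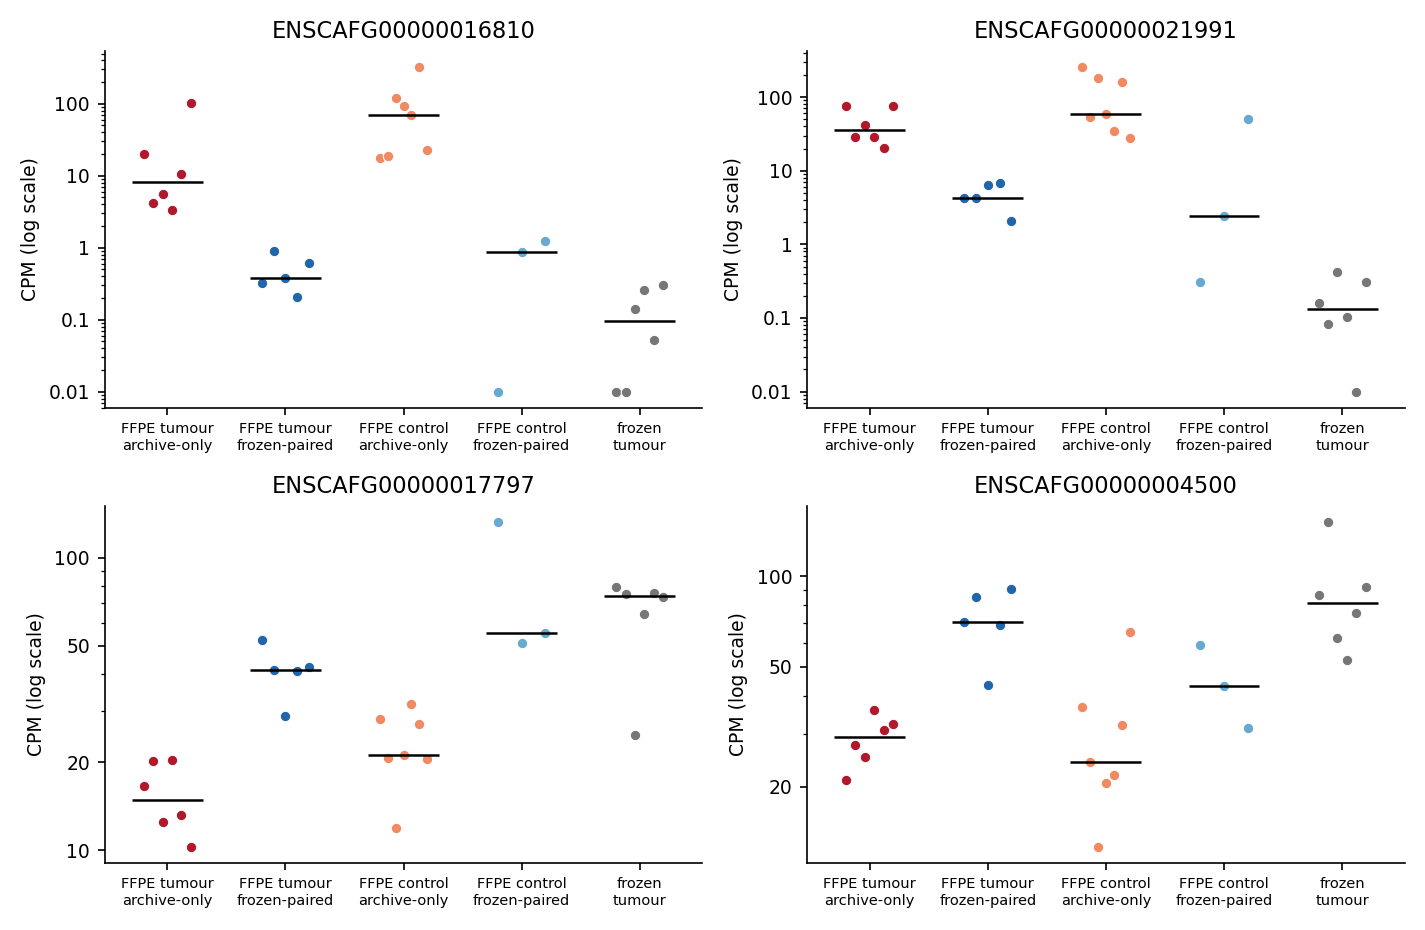
CPM (log scale) of the 4 named identifiers in each library, with lines at group medians. Libraries without a count are drawn at the lowest points of the top panels. The archive-only tumours lie above the frozen-paired tumours in the top panels and below them in the bottom panels, with no overlap.

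Genes that span at least 500 kb of the genome took a smaller share of counts in archive-only tumours. Many such genes in mammals encode neuronal adhesion and synaptic proteins, though the identifiers here carry no names. They took 1.12, 1.43, 1.02, 1.26, 1.16 and 1.30% of counts in the archive-only tumours of dogs 43917, 44331, 50416, 51234, 60177 and 60792. They took 1.885, 2.15, 1.58, 1.89 and 2.57% in the frozen-paired tumours of dogs 60127, 60461, 60636, 60679 and 60749. All 6 archive-only values lay below all 5 frozen-paired ones. The means were 1.22 ± 0.15% and 2.02 ± 0.37% (exact permutation p = 0.00217, the smallest that 462 splits can give; adjusted p = 0.0141 over 13 classes), and fresh-frozen tumours held 1.73 to 2.61%. Without dog 60461 the difference was −0.77 percentage points (adjusted p = 0.0310), and the call was kept without each other single library too. Of 182 tested, 0 passed singly, 34 were lower and 2 higher at an unadjusted p under 0.05 (18.7% and 1.10%, against 3.29% and 6.94% of all genes tested), and the median log2 fold change was −0.51. As a share of multi-exon counts alone the values were 1.90 ± 0.28% in archive-only and 2.70 ± 0.32% in frozen-paired tumours (exact permutation p = 0.00649, adjusted p = 0.0260). The ranges then overlapped, at 1.68 to 2.41% in archive-only and 2.22 to 3.01% in frozen-paired tumours. As a share of counts on chromosomes they were 1.85 ± 0.29% in archive-only and 2.61 ± 0.32% in frozen-paired tumours, and the call was lost (exact permutation p = 0.00866, adjusted p = 0.0952). The difference was −0.80 percentage points over multi-exon counts and −0.77 over counts on chromosomes. These p-values were adjusted by unlike amounts, so the kept and the lost call do not set the denominators apart.

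Multi-exon genes with at least 8000 exonic bp took 5.19 ± 0.51% of counts in archive-only and 6.88 ± 1.25% in frozen-paired tumours, again with 6 of 6 below (adjusted p = 0.0141). As a share of multi-exon counts this was 8.07 ± 0.58% in archive-only and 9.22 ± 1.10% in frozen-paired tumours, with overlapping ranges, and the call was lost (adjusted p = 0.121). Their median log2 fold change over 299 tested genes was −0.04. The count-weighted median exonic length of multi-exon genes was 3011 ± 88 bp in archive-only and 3087 ± 145 bp in frozen-paired tumours (adjusted p = 0.441). In control brains, genes spanning at least 500 kb held 0.862 to 1.98% in archive-only and 1.16 to 2.45% in frozen-paired libraries, which overlapped (adjusted p = 0.686). The difference in tumours minus that in control brains was −0.57 percentage points (exact permutation p = 0.192, adjusted p = 0.357). Among 185 genes spanning at least 500 kb that were tested in control brains, the median log2 fold change was −0.33. Of these, 26 were lower and 5 higher at an unadjusted edgeR p under 0.05, against 1177 lower and 1360 higher of all 13950 genes tested there (8.44% and 9.75%).

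Archive-only tumours were less like frozen tumours. The mean Spearman correlation with fresh-frozen tumours of other dogs was 0.771, 0.771, 0.769, 0.816, 0.804 and 0.741 in the archive-only tumours of dogs 43917, 44331, 50416, 51234, 60177 and 60792. It was 0.809, 0.874, 0.873, 0.845 and 0.840 in the frozen-paired tumours of dogs 60127, 60461, 60636, 60679 and 60749. Dog 51234 alone among the archive-only tumours exceeded the lowest frozen-paired value. The means were 0.778 ± 0.027 in archive-only and 0.848 ± 0.027 in frozen-paired tumours (exact permutation p = 0.00649, adjusted p = 0.0303). With every FFPE library thinned to 1752162 counts they were 0.774 ± 0.027 and 0.843 ± 0.027 (exact permutation p = 0.00866, unadjusted). The call was lost without any of 9 libraries, all but dogs 44331 and 51234 (adjusted p = 0.0556 to 0.0741), and without dog 60461 the difference was −0.063 (adjusted p = 0.0667). Pairs within the archive-only set correlated at 0.673 to 0.925 and pairs within the frozen-paired set at 0.746 to 0.942. The mean correlation with the tumour's own set was 0.814 ± 0.037 in archive-only and 0.873 ± 0.037 in frozen-paired tumours (adjusted p = 0.0909), and without dog 60461 the difference was −0.042 (adjusted p = 0.242).

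**Figure D4:**
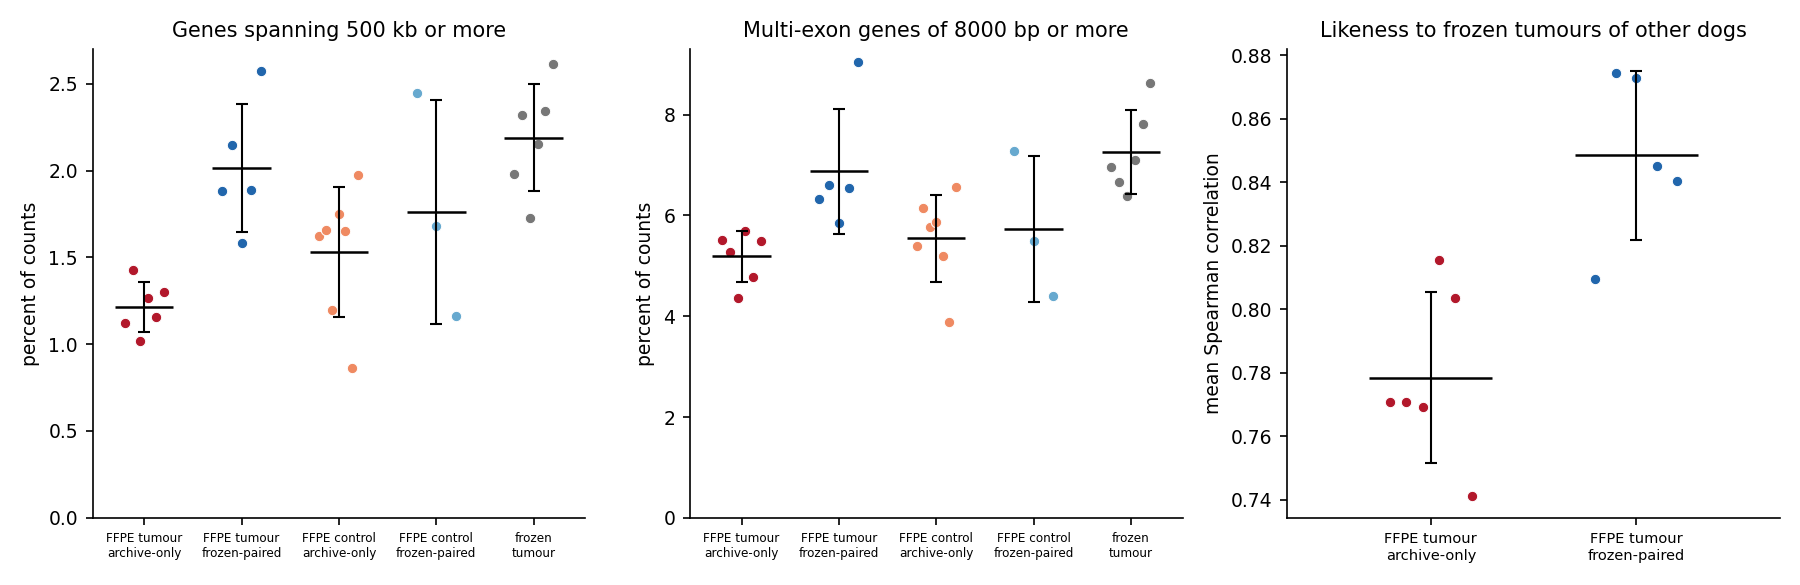
Percent of counts in genes spanning at least 500 kb (left) and in multi-exon genes of at least 8000 exonic bp (middle), and mean Spearman correlation with fresh-frozen tumours of other dogs (right, axis not from 0). Points are libraries, lines are means and bars are 1 SD. In the left and middle panels all 6 archive-only tumours lie below all 5 frozen-paired ones.

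Mitochondrial features of at least 200 bp held 24.1 ± 7.7% of counts in archive-only and 21.6 ± 9.8% in frozen-paired tumours, with wide overlap (adjusted p = 0.727). In control brains they held 17.8 ± 4.2% in archive-only and 28.6 ± 10.4% in frozen-paired libraries (adjusted p = 0.075). The difference between tissues was 13.4 percentage points (exact permutation p = 0.0714, adjusted p = 0.290).

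Chromosome-wide shifts were compared because gains of whole chromosomes move the expression of many genes at once in canine gliomas. A shift is the median, over the tested genes of a chromosome, of log2 CPM minus the mean of the FFPE control brains, centred on each library's median. On chromosome 13 the shift was −0.14 to 0.92 in archive-only and 0.02 to 0.96 in frozen-paired tumours, with means of 0.48 ± 0.36 and 0.44 ± 0.40 (exact permutation, adjusted p = 0.890 over 14 measures). On chromosome 35 it was −0.04 to 1.18 in archive-only and 0.22 to 1.07 in frozen-paired tumours, with means of 0.50 ± 0.44 and 0.53 ± 0.32 (adjusted p = 0.890). Each set held tumours with shifts near 0 and near 1 on chromosome 13. In the FFPE and then the frozen library of the same dog, that shift was 0.44 and 0.99 for dog 60461 and 0.68 and 0.007 for dog 60636. It was 0.02 and 0.06 for dog 60127, 0.09 and −0.02 for dog 60679, and 0.96 and 1.04 for dog 60749.

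On chromosome 19 the shift was −0.14, −0.15, −0.30, −0.61, −0.27 and −0.28 in the archive-only tumours of dogs 43917, 44331, 50416, 51234, 60177 and 60792. It was 0.37, −0.07, 0.02, 0.24 and −0.09 in the frozen-paired tumours of dogs 60127, 60461, 60636, 60679 and 60749. All 6 archive-only values lay below all 5 frozen-paired ones, with means of −0.29 ± 0.17 and 0.09 ± 0.20. The p of 0.00217 was the smallest possible and did not pass over 39 chromosomes (adjusted p = 0.0844). Among 136 tested genes of chromosome 19, 0 passed, while 26 were lower and 3 higher at an unadjusted p under 0.05 (19.1% and 2.21%, against 3.29% and 6.94% of all genes tested). Without dog 60461 the difference in shift was −0.43 (adjusted p = 0.186), where fewer splits limit p further. The control brains differed in the same direction, with means of −0.08 ± 0.11 in archive-only and 0.22 ± 0.19 in frozen-paired libraries (adjusted p = 0.0609). In tumours 0 of 39 chromosomes passed, but a chromosome alone at the smallest possible p could not pass there. In control brains 9 did (2, 14, 17, 20, 21, 23, 28, 36 and X, each at an adjusted p of 0.0361). Each of these 9 had the smallest p that 120 splits can give, 0.00833 by exact permutation, and they passed because they shared it. The counts of 0 and 9 therefore cannot be compared between tissues.

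**Figure D5:**
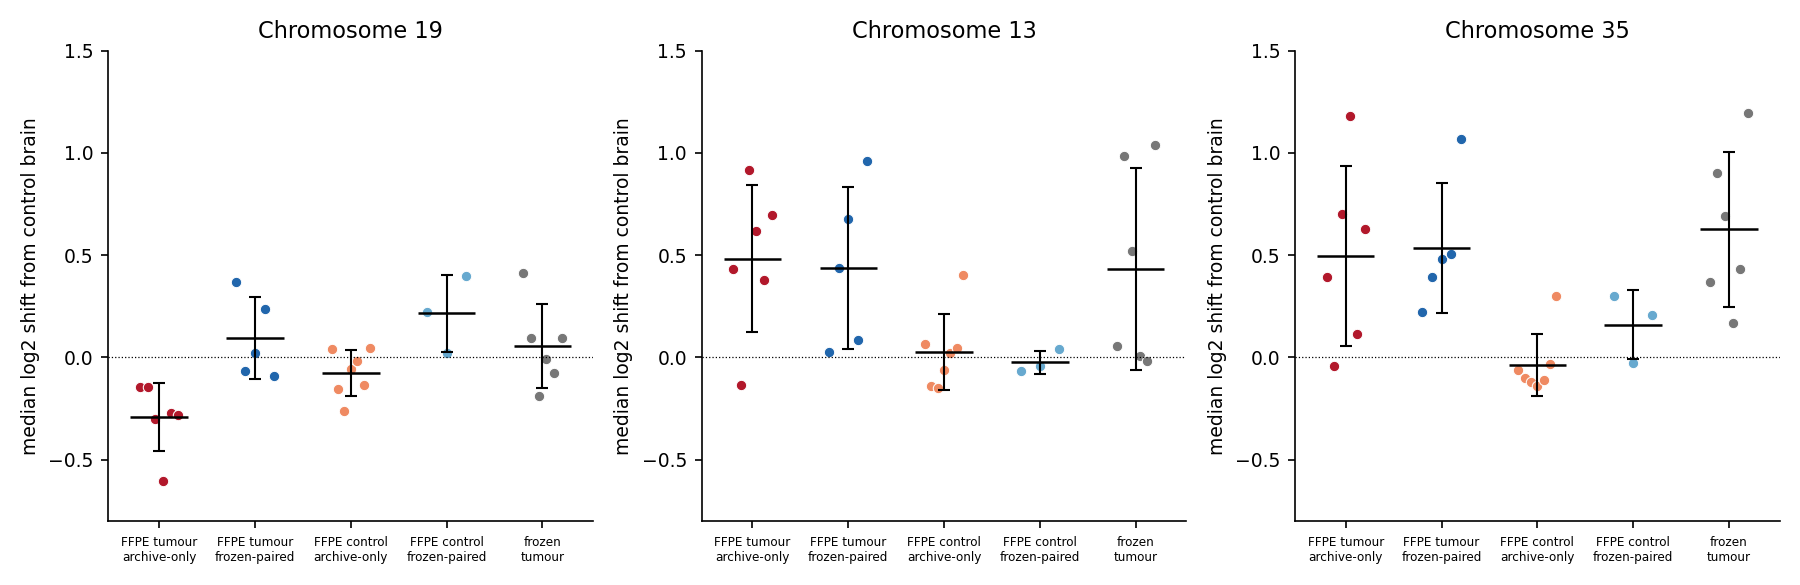
Median log2 shift of chromosomes 19, 13 and 35 from the mean of the FFPE control brains. Points are libraries, lines are means and bars are 1 SD. On chromosome 19 the archive-only tumours lie at −0.61 to −0.14 and the frozen-paired tumours at −0.09 to 0.37, and on chromosomes 13 and 35 the sets overlap.

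Genes were also tested for a difference in the archive-only effect between tumours and control brains over all 21 FFPE libraries. Of 15589 tested, 0 passed (0%) with edgeR, where 433 had an unadjusted p under 0.05, 1 passed with DESeq2 and 0 with limma voom. Within control brains 0 of 13950 passed (0%) with edgeR, although 1360 were higher (9.75%) and 1177 lower (8.44%) at an unadjusted p under 0.05. DESeq2 called 969 there, and edgeR called 158 without control dog 60460, 202 without dog 60462 and 1 without dog 61478. Of the 25 genes called in tumours, 23 had the same sign in control brains and 10 of these an unadjusted p under 0.05. These counts are a description, since the share of all tested genes with the same sign is not given. Moreover, 19 of the 25 were short single-exon features, a class whose median log2 fold change was above 0 in control brains too. Its share of counts in control brains averaged 2.595 ± 0.976% in archive-only and 3.026 ± 3.414% in frozen-paired libraries (exact permutation, adjusted p = 0.817). The short single-exon features had a median log2 fold change of 0.53 in control brains, and the middle length group had 1.76 in tumours and −0.14 in control brains, and for its share of counts the difference between tissues was 1.10 percentage points (exact permutation p = 0.259, adjusted p = 0.421). The control median for short features moved to 3.27 without dog 60462 and to 0.02 without dog 60126.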

How the data were processed

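Total RNA was sequenced as read pairs from stranded libraries whose kit adds 12 nt molecular identifiers, per the labels' protocols. The sources used here do not state if duplicates were collapsed by them, so counting error may understate the true error. Raw counts per gene were deposited, made by the authors with featureCounts 1.6.0 on Ensembl release 100 models of CanFam3.1, with strand option 1 and a mapping quality of at least 10, per the file headers. No option for reads with several positions or genes was set, per the file headers. The submitters' processing notes also name fastp and STAR.

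Genes were tested by edgeR 4.0.16 under R 4.3.3 (TMM factors, filterByExpr, robust quasi-likelihood F test) and adjusted by Benjamini-Hochberg at 0.05. SE is the log2 fold change divided by the square root of F. For the rule on named genes, log2 CPM used a prior count of 2. Chromosome shifts and Spearman correlations used log2 CPM with a smaller added count and no TMM factors. DESeq2 1.42.0 and limma 3.58.1 were alternatives. Library measures were compared in Python 3.11.15 with an exact permutation test (two-sided, every split), adjusted within each family. Scripts were tested on simulated data. Libraries are separate dogs within each set, and no pair of 25 agreed within sampling noise. The members, classes and tests were chosen with earlier results of these data known. The planned use of marker lists was dropped, since 0 identifiers matched a name. Named genes had to have an adjusted p under 0.05, a mean log2 CPM of at least 2, in either group at least 80% of libraries beyond the other group's median, and no overlap with another gene. Of 30951 genes, 10 higher and 0 lower met it. With none lower, the smallest unadjusted p was used.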

Additional observations from a re-analysis of the deposited data

Results flagged for a closer look

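Of 36 groups of values checked, 2 held a library far from the others, and chance flags about 1 in 20 groups. The frozen-paired tumour of dog 60127 had the lowest share of counts on unplaced scaffolds, 0.726%, against 1.30 to 1.47% in the other 4 frozen-paired tumours. The archive-only tumour of dog 60792 had the highest level of ENSCAFG00000016810, 103.7 CPM, against 3.39 to 19.98 CPM in the other 5 archive-only tumours.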

How the results depend on the processing

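No paired analysis was possible because the archive-only and frozen-paired sets share no dog number. The 25 called genes became 276 with DESeq2, 179 with limma voom, and 3 with all 21 FFPE libraries in 1 fit. They became 0 with short single-exon and mitochondrial features left out, with log10 total counts or breed as a covariate, without grade II tumours, in French Bulldogs only, without dogs 60127 and 60461, and with libraries thinned to 1752162 counts. Leaving out 1 library gave 0 to 35 calls. The interaction gave 0 calls without any single library and 1 with DESeq2. Control brains gave 0 to 202 calls with 1 library left out and 969 with DESeq2. The cause of these changes was not tested. The median of short features stayed at 0.71 to 1.52 in every fit of tumours that tested them.

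Smaller sets allow fewer splits, which limits p. Without grade II tumours, in French Bulldogs only and without dogs 60127 and 60461, in that order, no call below was kept. The differences were 9.67, 5.95 and 8.08 points for unplaced scaffolds, and 8.03, 4.85 and 6.61 points for single-exon genes over 300 bp. They were −0.38, −0.15 and −0.26 for log10 total counts, and −0.078, −0.056 and −0.074 for the correlation with frozen tumours. They were −0.84, −0.73 and −0.80 points for genes spanning at least 500 kb, and −1.87, −1.90 and −1.96 points for genes of at least 8000 bp. The shift of chromosome 13 reversed to −0.069, −0.29 and −0.092.

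With 1 library left out, the ranges were 6.62 to 9.63 points for unplaced scaffolds, 5.16 to 7.93 for single-exon genes over 300 bp, −0.37 to −0.27 for log10 total counts, −0.080 to −0.062 for the correlation, 0.69 to 1.15 for short features and −13.3 to −7.37 for multi-exon genes. The scaffold call held without dog 44331 or 51234, and without any other dog its adjusted p was 0.0556 to 0.0667. The same held for single-exon genes over 300 bp and, at up to 0.0741, for the correlation. The call on log10 totals held only without dog 44331. Short features passed without dog 44331 (adjusted p = 0.0444). Genes spanning at least 500 kb, at −0.91 to −0.66, and of at least 8000 bp, at −1.94 to −1.15, kept their calls without any single library. Reversals without 1 library gave ranges of −0.058 to 0.18 for chromosome 13, −0.17 to 0.10 for chromosome 35, −0.44 to 5.78 for mitochondrial features of at least 200 bp, −0.00033 to 0.021 for shorter ones and −21.2 to 302 for genes detected. With mitochondrial genes out of the denominator the multi-exon difference passed at −10.2 points. Over multi-exon counts and over counts on chromosomes, genes of at least 8000 bp gave −1.15 and −1.07 points and missed the threshold, and genes spanning at least 500 kb gave −0.77 points over counts on chromosomes.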
